A study of Cavia porcellus with 35 samples.

Results

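Fast-spiking interneurons that hold parvalbumin, and the large axons that hold neurofilaments, are marked in cortex by a small set of genes, and 10 of these were followed here in punches of cingulate and infralimbic cortex, both part of the medial prefrontal cortex (mPFC), of juvenile guinea pigs. They were PVALB, NEFH, NEFM, NEFL, INA, VAMP1, SYT2, CPLX1, LHX6 and CA7, 10 of the 12100 gene symbols listed in any of 4 count tables, and all 10 were listed and tested in every table. The set was chosen by the measured levels of PVALB, NEFH and VAMP1, which were higher together in the sGC animals of the F3 generation. Values of that comparison are therefore given as a description without a test, and tests are given for the other 3 comparisons.

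The animals were guinea pigs (Cavia porcellus) at postnatal day 40. F1 animals were born to dams that had received betamethasone, a synthetic glucocorticoid (sGC), or saline (control) in late pregnancy. F2 and F3 females descended from these litters through the paternal line, the F1 and F2 males having been mated with females outside the experiment, so that these females had not themselves been exposed as fetuses. There were 4 control and 4 sGC females in each of the F1, F2 and F3 generations, and 5 control and 6 sGC F1 males, with 1 library for each animal and with females of 1 group taken from separate litters. The labels name no strain, allele or further agent.

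Parvalbumin cells are GABA neurons that inhibit the cell bodies and initial axon of pyramidal neurons with fast, brief and precisely timed release. They depend on a calcium buffer, on fast vesicle release proteins at their terminals, and on thick axons that are often myelinated. Neurofilaments set the calibre of such axons. They are made by parvalbumin cells and also by large pyramidal neurons, so that they do not mark interneurons alone, and the same holds for the release genes VAMP1 and CPLX1.

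Reads assigned to genes ranged from 12819964 to 31763585 in a library, with the males sequenced to the greater depth (25697953 to 31763585). The 10 genes had from 88 reads (CA7, an F3 female) to 45139 reads (NEFL, an F1 male) in a library. Levels are given as CPM, read counts scaled to a common library size with TMM normalization, and since the tables hold no gene lengths the levels of different genes were not compared. One label of the samples names the paraventricular nucleus of the hypothalamus as the punched region, whereas the others name prefrontal cortex. FDR values come from the quasi-likelihood test of edgeR, adjusted over all genes of a table, unless another tool is named, and 0.05 is the threshold. Of the markers of the paraventricular nucleus, AVP and OXT averaged no more than 1.17 and 3.63 CPM in any group, and the cortical gene CAMK2A averaged at least 1207 CPM. The summed hypothalamic markers (5 genes tested in F3 females, 6 in the other tables) lay between 12.4 and 26.7 CPM in the animals, so they were low but not absent. The punches differed between animals in markers of other regions and cell types, as the plot of marker lists shows, and in tissue of this kind fewer cells of a type and less RNA per cell cannot be told apart.

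**Figure D1:**
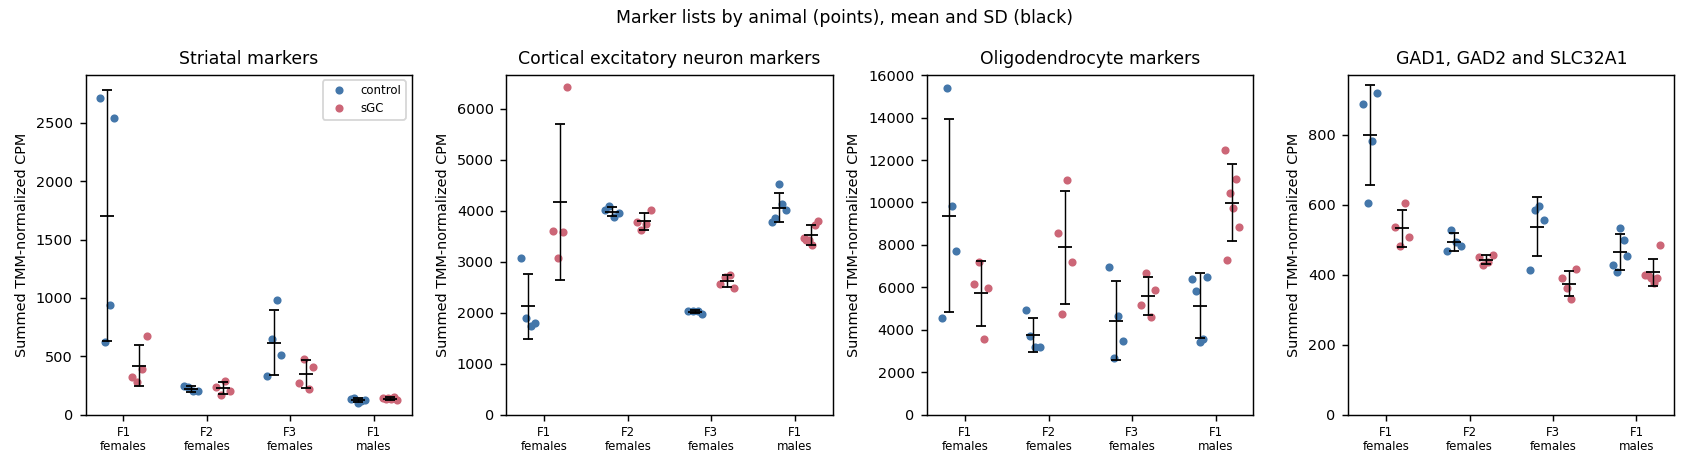
Summed TMM-normalized CPM of 4 marker lists (y axes, linear, from 0) in each animal of the 4 tables (x axis), blue for control and red for sGC, with the mean and SD in black. Striatal markers reached 2709 CPM in F1 control females and stayed at or under 151 CPM in F1 males, and oligodendrocyte markers were higher in all 6 sGC males than in any control male. Sums cover the genes of a list that were tested in a table, so the genes can differ between tables (9 striatal genes in F1 and F3 females, 6 in F2 females and 7 in F1 males).

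PVALB, the gene of the calcium buffer parvalbumin and the marker of the fast-spiking cells, varied widely among F1 females. The 4 controls were at 81.1, 61.7, 56.7 and 76.8 CPM, and the 4 sGC females at 92.6, 50.1, 162 and 182 CPM. In the sGC group 3 animals lay above every control and 1 lay below every control, so the groups overlapped. The difference was 0.82 as a log2 fold change (SE 0.35, 95% interval 0.02 to 1.61, edgeR FDR = 0.136), or 1.76-fold on means of 69.1 ± 11.7 and 122 ± 61.1 CPM (SD, n = 4 each). In F2 females the controls were at 106, 46.3, 55.2 and 40.4 CPM and the sGC animals at 77.4, 53.6, 139 and 101 CPM. Control animal 1 stood above 3 of the 4 sGC animals. At 0.58 the log2 fold change did not pass (SE 0.32, edgeR FDR = 0.416). In F1 males the controls were at 91.4, 99.8, 49.0, 66.7 and 92.9 CPM, and the sGC animals ran from 81.7 to 132 CPM with a median of 103 CPM. Of the 6 sGC males, 4 lay above every control, and the log2 difference was 0.35 (SE 0.17, edgeR FDR = 0.219).

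In F3 females, whose comparison served to choose the genes, PVALB was at 17.3, 20.5, 18.0 and 21.9 CPM in controls and at 33.9, 37.0, 32.3 and 43.7 CPM in sGC animals. The groups did not overlap and the log2 fold change was 0.92. Both groups were nevertheless low for this gene: the highest F3 control was below the lowest control of the other 3 tables, which stood at 40.4 CPM.

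Neurofilaments are assembled from a light chain (NEFL), a medium chain (NEFM), a heavy chain (NEFH) and alpha-internexin (INA). The heavy chain gene NEFH was at 311, 174, 198 and 284 CPM in F1 control females and at 288, 214, 455 and 492 CPM in sGC females (log2 fold change 0.58, SE 0.28, edgeR FDR = 0.178). The order of the sGC animals was that of PVALB, with animals 4 and 3 highest and animal 2 lowest. In F2 females NEFH was at 313, 127, 183 and 129 CPM in controls and at 244, 183, 506 and 201 CPM in sGC animals, so that 1 animal in each group, control 1 and sGC 3, stood far above the rest (log2 fold change 0.59, SE 0.35, edgeR FDR = 0.444). In F1 males the controls were at 288, 401, 156, 256 and 377 CPM and the sGC animals ran from 293 to 452 CPM with a median of 388 CPM (log2 fold change 0.34, SE 0.20, edgeR FDR = 0.322). F3 females were by contrast tightly grouped, at 76.6, 61.5, 70.2 and 62.4 CPM in controls and at 128, 129, 128 and 126 CPM in the sGC group (log2 fold change 0.92).

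NEFM, the medium chain, had log2 fold changes of 0.57 in F1 females, 0.61 in F2 females and 0.37 in F1 males, with standard errors of 0.34, 0.37 and 0.24, and the lowest edgeR FDR was 0.264. Its values in F2 females were 575, 198, 262 and 240 CPM in controls and 460, 299, 834 and 347 CPM in sGC animals, again with control 1 and sGC 3 highest. Without control animal 1 the log2 fold change in F2 females was 1.06 and without sGC animal 3 it was 0.20. In F3 females NEFM was at 132, 139, 183 and 144 CPM in controls and at 216, 288, 183 and 318 CPM in sGC animals. The lowest sGC animal (182.833 CPM) and the highest control (182.793 CPM) were all but equal, which is why this gene barely counts among those whose F3 groups did not overlap.

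The light chain gene NEFL came closest to the threshold. F1 control females were at 1127, 792, 904 and 1081 CPM and sGC females at 1404, 1027, 1654 and 1554 CPM. All sGC animals but animal 2 lay above every control, and the log2 fold change was 0.53 (SE 0.16, 95% interval 0.17 to 0.89, edgeR FDR = 0.0533). With the likelihood ratio test of edgeR, which the methods of the study name, the FDR was 0.0163, and with DESeq2 it was 0.00859. In F2 females and F1 males the log2 fold changes were 0.26 (SE 0.18, edgeR FDR = 0.510) and 0.04 (SE 0.10, edgeR FDR = 0.866), and the 95% interval in males, from -0.18 to 0.25, lay below the estimate for F1 females. In F3 females NEFL was between 452 and 518 CPM in controls and between 666 and 707 CPM in sGC animals.

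INA, which had the smallest standard error of the 4 filament genes in every table, was at 323, 278, 340 and 375 CPM in F1 control females and at 391, 371, 438 and 373 CPM in sGC females (log2 fold change 0.26, SE 0.09, edgeR FDR = 0.0927). In the sGC group 2 animals lay above every control. In F1 males the controls lay between 347 and 379 CPM and the sGC animals between 331 and 356 CPM, a log2 fold change of -0.07 (SE 0.03, edgeR FDR = 0.219). It was -0.02 in F2 females (SE 0.07, edgeR FDR = 0.903) and 0.26 in F3 females, where controls were between 204 and 225 CPM and sGC animals between 247 and 275 CPM.

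**Figure D2:**
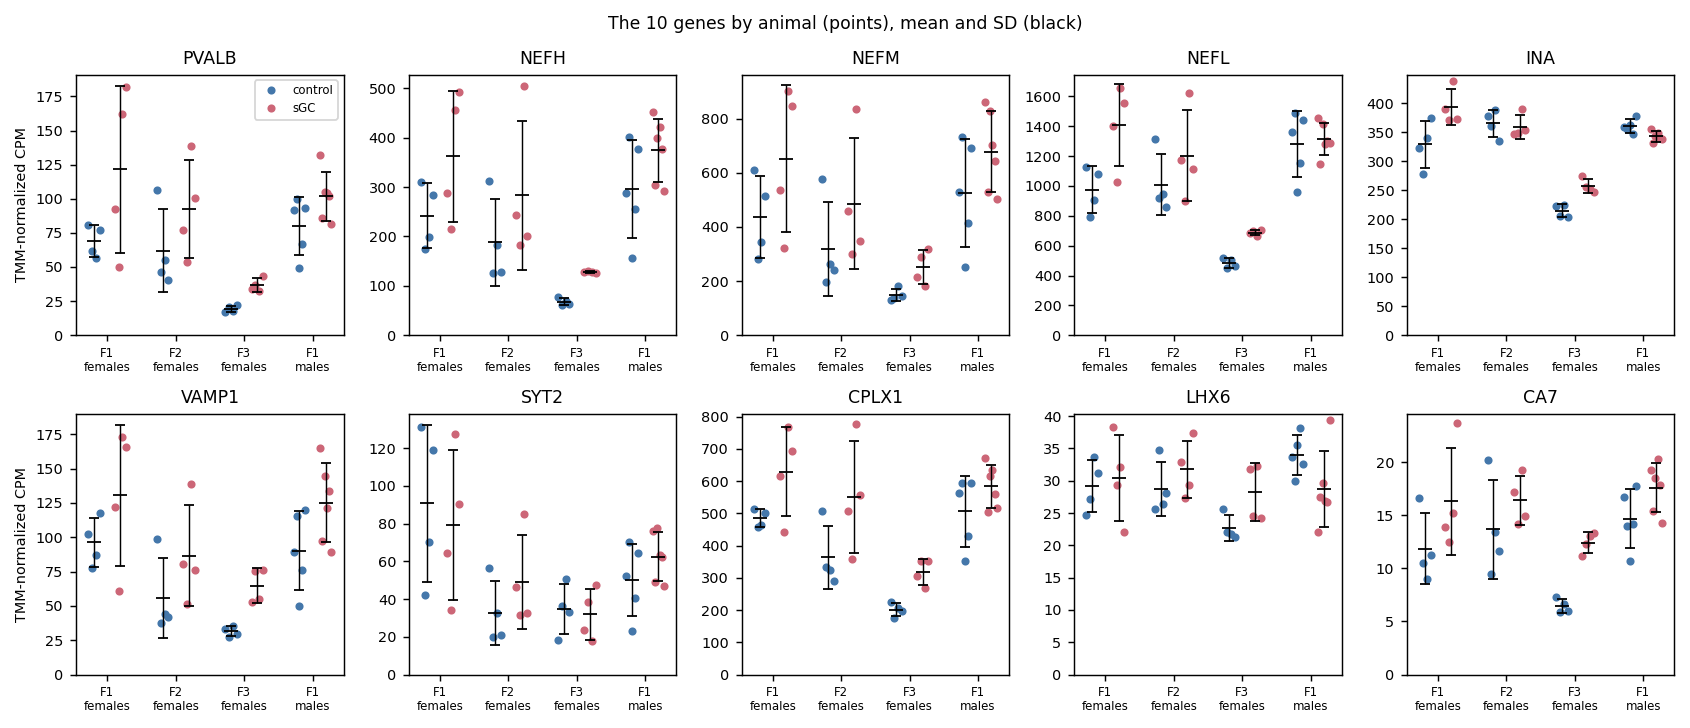
TMM-normalized CPM (y axes, linear, from 0) of each of the 10 genes in every animal of the 4 tables (x axis), blue for control and red for sGC, with the mean and SD in black. In F3 females 8 of the 10 genes have every sGC animal above every control, on levels that are lower than in the other tables for 9 of the 10 genes in controls, while in F1 and F2 females and F1 males the groups overlap for every gene.

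VAMP1, SYT2 and CPLX1 belong to the release machinery of fast terminals: VAMP1 is a vesicle SNARE protein, SYT2 a calcium sensor of the vesicle and CPLX1 a complexin that clamps and primes the SNARE complex. VAMP1 was at 102, 77.7, 86.9 and 118 CPM in F1 control females and at 122, 60.6, 173 and 166 CPM in sGC females (log2 fold change 0.44, SE 0.29, edgeR FDR = 0.312). F2 control females were at 98.9, 37.7, 43.9 and 41.8 CPM and sGC females at 80.6, 51.3, 139 and 75.8 CPM (log2 fold change 0.64, SE 0.34, edgeR FDR = 0.383). Every F2 sGC animal was above control animals 2 to 4, and control animal 1 was above 3 of the 4 sGC animals. F1 control males were at 89.4, 116, 50.1, 76.5 and 120 CPM, and sGC males ran from 89.2 to 165 CPM with a median of 128 CPM. Of these, 4 lay above every control, and the log2 difference of 0.47 (SE 0.21) had an unadjusted p of 0.0417 and an FDR of 0.178 in the edgeR fit. In F3 females VAMP1 had the largest difference of the 10 genes, a log2 fold change of 1.04, with controls at 33.3, 27.6, 35.5 and 29.5 CPM and sGC animals at 52.8, 75.4, 54.7 and 76.1 CPM.

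CPLX1 was at 515, 458, 464 and 501 CPM in F1 control females and at 617, 442, 768 and 692 CPM in sGC females, with sGC animal 2 below every control and the others above (log2 fold change 0.38, SE 0.15, edgeR FDR = 0.106). In F2 females, controls were at 507, 333, 325 and 289 CPM and sGC animals at 506, 359, 779 and 557 CPM. A log2 fold change of 0.60 (SE 0.22) came with an unadjusted p of 0.0213 and an FDR of 0.225 in the edgeR fit. It was 0.20 in F1 males (SE 0.13, edgeR FDR = 0.364) and 0.66 in F3 females, where controls reached from 176 to 225 CPM and sGC animals from 267 to 352 CPM.

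SYT2 was the release gene that did not have a common direction. F1 control females were at 131, 42.3, 70.1 and 119 CPM and sGC females at 64.2, 34.0, 128 and 90.3 CPM, a log2 fold change of -0.20 (95% interval -1.18 to 0.78, edgeR FDR = 0.774) that turned positive without control animal 1 or without sGC animal 2. SYT2 differed by 0.59 in F2 females (SE 0.37) and 0.32 in F1 males (SE 0.23) on the log2 scale, with edgeR FDR values of 0.472 and 0.439. In F3 females it was -0.12, and the animals were at 18.4, 36.1, 50.8 and 33.2 CPM in controls and at 23.5, 38.4, 17.9 and 47.7 CPM in the sGC group. SYT2 was thus the one of the 10 genes lower in F3 sGC animals than in F3 controls, and its sign there turned without control animal 3, sGC animal 1 or sGC animal 3.

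LHX6, a transcription factor that interneurons of the medial ganglionic eminence keep as adults, is shared by parvalbumin and somatostatin cells. It was at 24.6, 27.2, 33.7 and 31.1 CPM in F1 control females and at 38.3, 29.4, 32.1 and 22.1 CPM in sGC females, a log2 fold change of 0.06 (95% interval -0.30 to 0.43, edgeR FDR = 0.808). The values were 25.6, 34.8, 26.5 and 28.1 CPM in F2 controls and 33.0, 27.4, 29.4 and 37.4 CPM in F2 sGC females (log2 fold change 0.14, SE 0.12, edgeR FDR = 0.594). In F1 males the controls lay between 29.9 and 38.2 CPM, and the sGC animals ran from 22.1 to 39.4 CPM with a median of 27.2 CPM. Of the sGC males 5 were below every control and 1, animal 6, was above every control. The log2 difference was -0.24 (SE 0.12, edgeR FDR = 0.220), and without sGC animal 6 it was -0.35 with an edgeR FDR of 0.0150. In F3 females LHX6 was at 25.6, 22.02, 21.7 and 21.4 CPM in controls and at 31.9, 24.5, 32.3 and 24.2 CPM in sGC animals, so that the groups overlapped.

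CA7, a cytosolic carbonic anhydrase that makes bicarbonate in neurons, had the lowest counts of the 10 genes. F1 control females were at 16.6, 10.5, 9.02 and 11.3 CPM and sGC females at 13.9, 12.5, 15.2 and 23.7 CPM (log2 fold change 0.45, SE 0.24, edgeR FDR = 0.216). The difference was 0.26 in log2 units in F2 females (SE 0.20, edgeR FDR = 0.561) and 0.26 in F1 males (SE 0.12, edgeR FDR = 0.210), where 4 of the 6 sGC males lay above every control. In F3 females CA7 was at 7.31, 5.86, 6.69 and 5.97 CPM in controls and at 11.1, 12.3, 13.02 and 13.3 CPM in the sGC group (log2 fold change 0.94).

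Counted together, 0 of the 10 genes passed in F1 females in the edgeR fit, where 16.5% of the 11268 genes tested did. Of the 1864 genes called, 55.7% were higher, and of 1891 called with upper-quartile scaling 42.5% were. PVALB, NEFL, INA and CPLX1 (4 of 10) had an unadjusted p under 0.05 and a higher level, as did 16.4% of all genes. DESeq2 called NEFL and INA (21.5% of all genes were called), and the likelihood ratio test called NEFL (18.6% of all genes). Without sGC animal 2 the edgeR fit called 4 of the 10 genes (PVALB, NEFL, VAMP1 and CPLX1), and 1608 over all genes. Without control animal 1 it called NEFL, and 2115 over all genes. In 0 of the 10 did all sGC animals lie above all controls, an arrangement found in 12% of all genes. The sGC animals were higher on average in 9 of the 10 genes (45.5% of all genes), and 7 had a log2 fold change above 0.3 (10.2% of all genes).

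In F2 females the edgeR fit called 0 of the 10 genes, against 0.278% of the 11132 genes tested, and DESeq2 and the likelihood ratio test also called 0. CPLX1 was the 1 gene with an unadjusted p under 0.05 and a higher level, against 8.72% of all genes. Estimates were above 0 in 9 genes (52.1% of all genes) and above 0.3 in 6 (7.88% of all genes), and in 0 were all sGC animals above all controls (4.08% of all genes). In F1 males the edgeR fit called 0 of the 10 genes, against 9.22% of the 11524 genes tested, and DESeq2 and the likelihood ratio test called 0 as well. VAMP1 was the 1 gene with an unadjusted p under 0.05 and a higher level, against 12.5% of all genes. Of the 10 genes 8 were higher in sGC males (50% of all genes), 5 had a log2 fold change above 0.3 (7.22% of all genes) and 0 separated the groups (4.22% of all genes).

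The median log2 fold change of the 10 genes was 0.45 in F1 females, 0.58 in F2 females and 0.29 in F1 males, while the median over all genes tested was between -0.03 and 0.01. In F2 females the median of the 10 genes was 0.88 without control animal 1 and 0.17 without sGC animal 3, and in F1 males it was 0.15 without control animal 3. The median standard error of the 10 genes was 0.26, 0.27 and 0.15 in F1 females, F2 females and F1 males, against 0.10, 0.096 and 0.070 for all genes, and in F3 females it was 0.11, against 0.086. INA, at 0.09, 0.07 and 0.03 in F1 females, F2 females and F1 males, lay below the median of all genes.

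**Figure D3:**
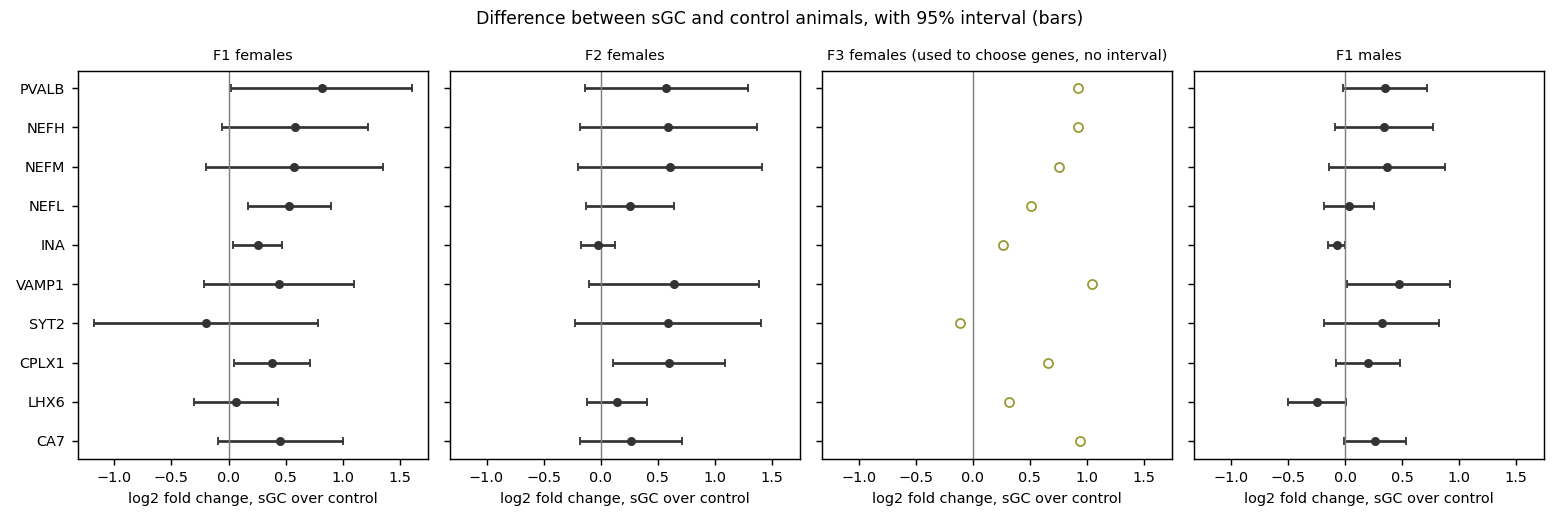
Log2 fold change of sGC over control animals (x axes) for each of the 10 genes (y axis) in the 4 tables, with 95% intervals from edgeR's quasi-likelihood fit as bars. Estimates lie to the right of 0 for 9 genes in F1 and in F2 females and for 8 in F1 males, mostly with bars that reach 0, and the open points of F3 females, which served to choose the genes, carry no interval.

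In F3 females, for which no test is given, 9 of the 10 genes were higher in sGC animals (48.2% of all 11420 genes) and 8 had a log2 fold change above 0.3 (6.73% of all genes). All but SYT2 and LHX6 had every sGC animal above every control, an arrangement of 5.95% of all genes. These counts follow from the way the genes were chosen, and nothing is read from them. The median log2 fold change was 0.71. VAMP1, PVALB and NEFH, on which the choice rested, were at 1.04, 0.92 and 0.92, and the other 7 genes ran from 0.94 (CA7) through 0.75 (NEFM), 0.66 (CPLX1), 0.51 (NEFL), 0.31 (LHX6) and 0.26 (INA) to -0.12 (SYT2).

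F3 levels were low as well as tightly grouped. The F3 controls averaged 19.4 ± 2.14 CPM of PVALB (SD, n = 4), and the control means of the other 3 tables lay between 62.1 and 79.9 CPM. For NEFH the F3 control mean was 67.7 ± 7.15 CPM and the others lay between 188 and 296 CPM. For CPLX1 the values were 201 ± 20.5 CPM and 363 to 507 CPM. The lowest other control mean exceeded that of F3 by 3.19-fold for PVALB, 2.78-fold for NEFH, 2.13-fold for NEFM, 2.01-fold for NEFL, 1.84-fold for CA7, 1.80-fold for CPLX1, 1.77-fold for VAMP1, 1.53-fold for INA and 1.27-fold for LHX6. SYT2 was the exception, with an F3 control mean of 34.7 ± 13.3 CPM between those of F2 females (32.6 CPM) and F1 females (90.7 CPM). The F3 sGC mean of PVALB, 36.7 ± 5.04 CPM, was also below the control means of the other tables. Each table was normalized on its own here, and with a joint TMM normalization of all libraries the 9 genes were lower in F3 controls too, as was SYT2 (by 1.06-fold). Since each generation of females was counted in a table of its own, table and generation cannot be told apart.

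Whether the response to sGC differed between groups was tested as an interaction, for the 3 pairs of tables that leave out F3. INA differed between F1 females and F1 males by -0.34 on the log2 scale (males minus females, SE 0.09, edgeR FDR = 0.00975), with log2 fold changes of 0.26 and -0.07. The FDR lay between 0.00173 and 0.0246 under 26 alternatives. INA was the 1 gene of the 10 past the threshold in this pair, a pair in which 31.7% of all 11274 genes were. INA and NEFL had an unadjusted p under 0.05, against 42.2% of all genes. NEFL differed by -0.50 (95% interval -0.91 to -0.10, edgeR FDR = 0.0555), and passed with the likelihood ratio test (31.4% of all genes called) and with DESeq2 (33.6% of all genes called). It also passed in the edgeR fit without F1 control female 1, F1 sGC female 2 or F1 control male 3. For PVALB the difference was -0.47, with a 95% interval from -1.27 to 0.33. Between F1 and F2 females 0 of the 10 genes passed, against 13.8% of all 11166 genes, and the differences ranged from -0.29 (INA) to 0.78 (SYT2), with intervals that were wide (from -0.56 to 2.13 for SYT2). INA was the 1 gene with an unadjusted p under 0.05 in that pair (30.7% of all genes), its interval being -0.54 to -0.03, and it passed without F1 control animal 4. Between F2 females and F1 males 0 of the 10 genes and 0% of all 11198 genes passed in the edgeR fit (DESeq2 called 26 genes and the likelihood ratio test 22 over all genes), with an unadjusted p under 0.05 for LHX6 and for 8.94% of all genes. The males were counted in a table of their own at greater depth, so that sex and table cannot be told apart.

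Animals within a group differed from each other along a common line. Each gene's log2 CPM was set against the mean of its own condition, and the deviations of the 35 animals were correlated between PVALB and each of the other genes, with animals permuted within conditions (100000 permutations, two-sided, adjusted over 9 pairs). Pearson's r with PVALB was 0.91 for VAMP1 (Spearman's rho 0.87), 0.89 for CPLX1 (rho 0.87), 0.88 for NEFM (rho 0.88), 0.88 for NEFL (rho 0.82), 0.87 for NEFH (rho 0.84) and 0.80 for SYT2 (rho 0.82). The permutation p of these r values was 1e-05, the smallest that the permutations can give, and 1.5e-05 after adjustment. CA7 followed at r = 0.74 (rho 0.75, adjusted permutation p = 5.14e-05). Without the 2 animals farthest from the median of PVALB these 7 values of r lay between 0.68 and 0.87.

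INA and LHX6 did not share that line. For INA, r with PVALB was 0.35 (rho 0.29, adjusted permutation p = 0.0729). For LHX6 it was -0.39 (rho -0.50), with an adjusted permutation p of 0.0722 for r and 0.00871 for rho, and r was -0.44 without the 2 farthest animals. The 15 pairs among PVALB, NEFH, NEFM, NEFL, VAMP1 and CPLX1 had r from 0.87 to 0.95. Over the 9 pairs of LHX6, r ran from -0.56 (with CA7) to 0.14 (with INA).

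Within single tables, r between NEFH and PVALB was 0.93 in F1 females, 0.89 in F2 females and 0.95 in F1 males, and -0.64 in F3 females. For VAMP1 and PVALB the values were 0.95, 0.95, 0.96 and 0.31, and for CPLX1 and PVALB 0.95, 0.97, 0.97 and 0.23. In the F3 table, with 8 animals, r with PVALB was 0.56 for NEFM and 0.65 for SYT2, so that the genes differed among themselves there. For LHX6 and PVALB the value was negative in every table, from -0.13 in F2 females to -0.80 in F3 females. Both values of a pair come from the same library. PVALB was also correlated with the marker lists. For oligodendrocyte markers, r was -0.53 in F1 females, 0.89 in F2 females, -0.33 in F3 females and 0.87 in F1 males. For striatal markers it was 0.55, 0.66, 0.43 and 0.86 in the same order, and for upper layer markers 0.78, -0.62, 0.28 and -0.86. Over all animals, r with the marker lists ran from -0.45 (astrocyte) to 0.51 (striatal). The part of tissue composition in these relations was not tested.

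**Figure D4:**
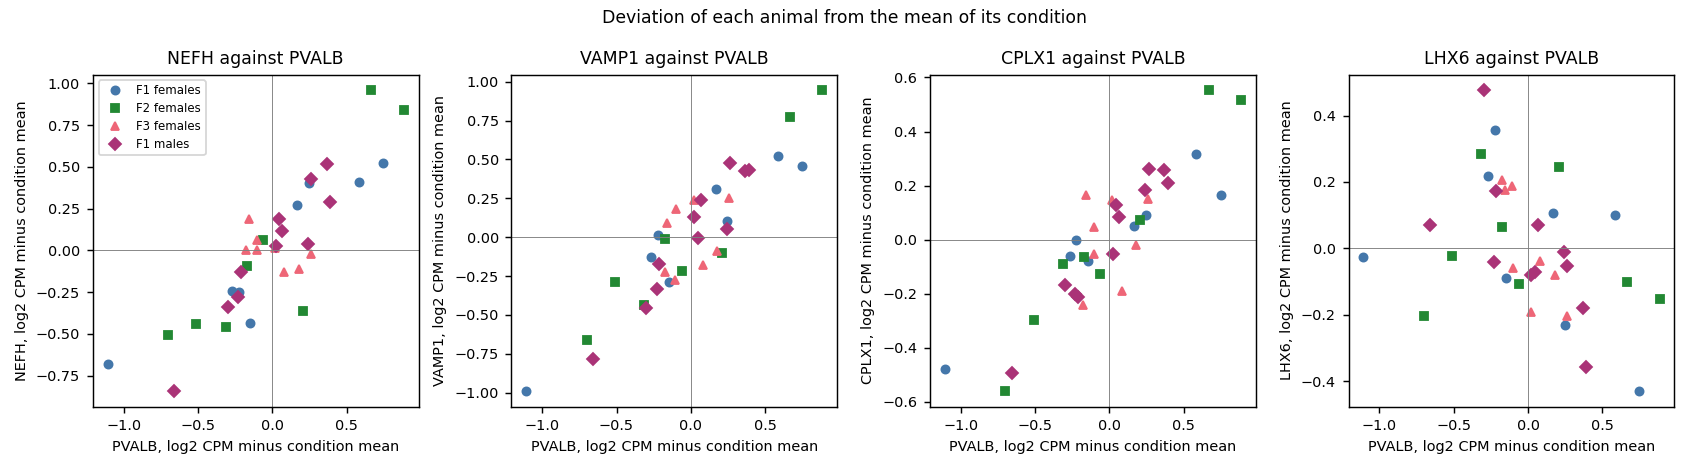
Deviation of each animal from the mean of its condition in log2 CPM, for PVALB (x axes) against NEFH, VAMP1, CPLX1 and LHX6 (y axes), 1 point for each of the 35 animals with a symbol and colour for each table. Points of F1 females, F2 females and F1 males lie along a rising line for NEFH, VAMP1 and CPLX1 (r = 0.87, 0.91 and 0.89), points of F3 females cluster near the centre, and LHX6 runs the other way (r = -0.39).

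Among the 10715 other genes tested in all 4 tables, those whose deviations were among the most like those of PVALB over the 35 animals were HAPLN4 (r = 0.92), CABP1 (0.89), RELL2 (0.89) and BEND6 (0.88). For NEFH they were HAPLN4 (r = 0.93), CAMTA1 (0.89), KDM1A (0.89), APOB (0.89) and SEMA7A (0.89). Ranked together with the other 9 genes among all 10724, VAMP1 was 3rd in likeness to PVALB and CPLX1 4th, while CA7 was 83rd and INA 1534th.

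**Figure D5:**
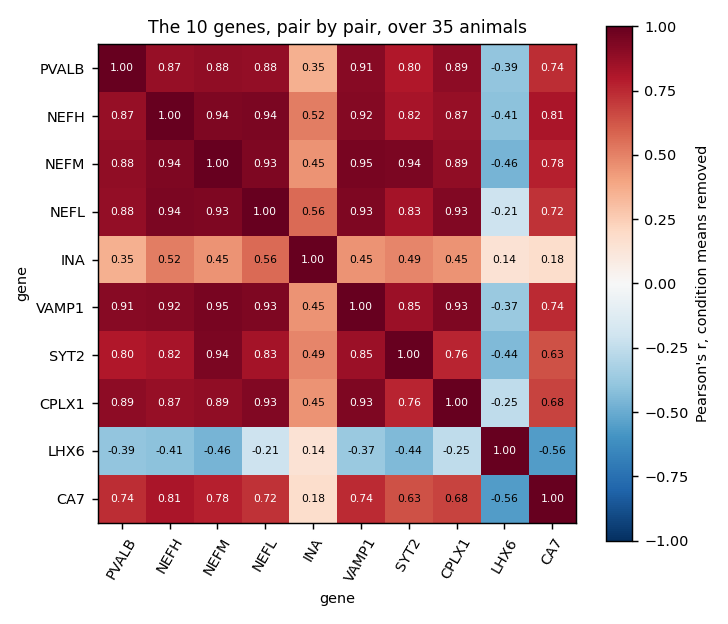
Pearson's r of within-condition deviations (colour scale from -1 to 1, values printed) for every pair of the 10 genes over 35 animals. A block of 6 genes (PVALB, NEFH, NEFM, NEFL, VAMP1, CPLX1) has r from 0.87 to 0.95, SYT2 and CA7 attach to it, INA is apart and LHX6 is mostly negative.

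General markers of GABA neurons were lower in sGC animals or did not pass. GAD1 and GAD2 make GABA and SLC32A1 loads it into vesicles, and in F1 females GAD2 fell by 0.62 (SE 0.10, edgeR FDR = 0.00721) and SLC32A1 fell by 0.89 (SE 0.21, edgeR FDR = 0.0254), on the log2 scale. SLC32A1 kept its call in 3 of the 8 fits that left out 1 animal and lost it without control animal 3 or 4 or sGC animal 1, 2 or 4. GAD1 was at -0.40 in F1 females (SE 0.15, edgeR FDR = 0.0906), and in F1 males GAD1 fell by 0.22 (SE 0.06, edgeR FDR = 0.0293). Somatostatin (SST), the marker of the neighbouring interneuron class that shares LHX6, fell by 0.54 in F1 males (SE 0.14, edgeR FDR = 0.0345), from 128 ± 23.1 to 88.4 ± 18.9 CPM. Both male calls depended on the animals included: GAD1 passed in 4 of the 11 fits that left out 1 animal (those without control 1, 2 or 5 or sGC 6), and SST in 3 (those without control 2 or 5 or sGC 6). Over all genes the fits without control 1, 2 or 5 or sGC 6 called 921, 941, 1040 and 1613, and the others from 667 to 822. The log2 fold change lay between -0.26 and -0.19 for GAD1 and between -0.65 and -0.45 for SST in the 11 fits. GAD2 and SLC32A1 were at -0.19 and -0.12 in F1 males and did not pass. In F2 females the edgeR fit called 0 of these 3 genes, against 0.278% of all genes. GAD2 had a log2 fold change of -0.21 there (edgeR FDR = 0.121, and 0.0384 with DESeq2, which called 471 over all genes). Every F2 sGC animal was below every F2 control for GAD2, and the share of all genes so arranged is not given here. GAD1 was at -0.15 there, and SST, at -0.17 in F1 and -0.09 in F2 females, did not pass either. In F3 females, given as values, the log2 fold changes were -0.41 for GAD1, -0.49 for GAD2, -0.85 for SLC32A1 and -0.24 for SST. Striatal marker sums averaged 1704 CPM for F1 control females against 417 CPM for F1 sGC females, and 617 against 344 CPM in F3. They were not lower with sGC in F2 females (220 against 225 CPM) or F1 males (124 against 136 CPM). The part of striatal tissue in the values of GAD1, GAD2 and SLC32A1 was not tested.

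The companions of these genes in the same cells were followed as lists, whose counts are read against the 16.5% of all genes that passed in either direction in F1 females, 0.278% in F2 females and 9.22% in F1 males. Of 20 further fast-spiking interneuron genes tested in F1 females, 2 rose and 1 fell, and 17 did not pass. The potassium channel gene KCNC2, whose channel lets these cells repolarise fast, rose by 0.77 (SE 0.18, edgeR FDR = 0.0250), and TAC1 fell by 1.52 (SE 0.30, edgeR FDR = 0.0142). TAC1 makes the neuropeptide substance P and is also abundant in striatal neurons. The median log2 fold change of this list was 0.15 in F1 females, 0.09 in F2 females (0 of 20 passed) and 0.01 in F1 males (1 of 21 passed). The gene that passed in males was the axonal potassium channel KCNA1, at 0.47 (SE 0.13, edgeR FDR = 0.0387), and it passed in 4 of the 11 fits that left out 1 animal (those without control 1, 2 or 5 or sGC 6), with an FDR of up to 0.0975. Those 4 fits called from 921 to 1613 over all genes, and the others from 667 to 822. The log2 fold change of KCNA1 lay between 0.37 and 0.56 in the 11 fits. In F3 females the median was 0.05 with 16 of 20 above 0 (48.2% of all genes), and KCNC2 was at 0.56. Of 6 transcription factors of the interneuron lineage other than LHX6, 1 rose and 1 fell in F1 females and 0 passed in F2 females or F1 males. SATB1, which acts in the maturation of interneurons and is also made by cortical excitatory neurons, rose by 0.85 in F1 females (SE 0.09, edgeR FDR = 0.00356). Of the markers of other interneuron classes, 1 rose and 2 fell of 13 in F1 females, 0 of 14 passed in F2 females, and 3 fell of 14 in F1 males. NPY, a neuropeptide of somatostatin and neurogliaform cells, fell by 0.37 in F1 females (SE 0.06, edgeR FDR = 0.00770), and the calretinin gene CALB2 fell by 1.44 in F1 males (SE 0.36, edgeR FDR = 0.0256). CALB2 passed in 6 of the 11 fits with 1 male left out and lost its call without control 3 or 4 or sGC 1, 3 or 4 (FDR up to 0.0721).

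Of 25 genes of the wider release machinery, 17 rose and 1 fell in F1 females (16.5% of all genes passed), with a median log2 fold change of 0.49. In F2 females 0 of 25 passed (0.278% of all genes), and in F1 males 2 fell and 0 rose (9.22% of all genes). NAPB, a SNARE recycling cofactor, rose by 0.54 (SE 0.05, edgeR FDR = 0.00279) in F1 females. SYT1, the paralog of SYT2, rose by 0.62 (SE 0.10, edgeR FDR = 0.00625), while CPLX2, the paralog of CPLX1, was at -0.04 (SE 0.13, edgeR FDR = 0.841). In F2 females and F1 males neither passed, with SYT1 at 0.04 and -0.04 and CPLX2 at 0.36 and 0.03. SYN2, a vesicle-associated synapsin, fell by 0.34 in F1 males (SE 0.08, edgeR FDR = 0.0216), and lost its call without control 3 or 4 or sGC 3, 4 or 5 (FDR up to 0.0596). In F3 females the median of the list was 0.35, with SYT1 at 0.44, CPLX2 at 0.23 and the vesicle priming gene UNC13A at 0.41.

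Genes of neurofilament transport and phosphorylation, such as kinesins, dynein, CDK5 and microtubule-associated proteins, rose for 10 of 16 in F1 females, where 16.5% of all genes passed. MAP1B had the lowest p among them (log2 fold change 0.63, SE 0.07, edgeR FDR = 0.00390). In F2 females 0 of 16 passed (0.278% of all genes), and in F1 males, where 9.22% of all genes passed, 1 fell, the CDK5 activator gene CDK5R1 (-0.27, SE 0.06, edgeR FDR = 0.0119). Of 16 genes of the node of Ranvier and axon initial segment, 9 rose in F1 females, 0 passed in F2 females, and 2 rose and 2 fell in F1 males. NRCAM, a cell adhesion molecule of the node, rose by 0.56 in F1 females (SE 0.05, edgeR FDR = 0.00356), and NFASC, which anchors the node and the paranode, rose by 0.43 in F1 males (SE 0.08, edgeR FDR = 0.00580). KCNAB2, a potassium channel subunit of axons, was at 0.27 in F3 females. The other intermediate filaments, among them vimentin, nestin and GFAP, had 0 of 8 genes past the threshold in each of F1 females, F2 females and F1 males.

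Among other carbonic anhydrases, 1 rose and 2 fell of 11 in F1 females (16.5% of all genes passed), 0 of 11 passed in F2 females (0.278% of all genes), and 3 rose of 12 in F1 males (9.22% of all genes). CA12 fell by 1.95 in F1 females (SE 0.42, edgeR FDR = 0.0189), and CA5B, a mitochondrial form, rose by 0.41 in F1 males (SE 0.10, edgeR FDR = 0.0226). CA12 lost its call without sGC animal 1 (FDR 0.0584 in edgeR), and CA5B without control animal 2, 3 or 4 (FDR up to 0.0565). Of the other calcium-binding proteins, 3 rose and 2 fell of 16 in F1 females, 1 rose of 17 in F2 females, and 1 rose and 3 fell of 17 in F1 males. VSNL1, a neuronal calcium sensor, rose by 0.83 in F1 females (SE 0.12, edgeR FDR = 0.00537), and S100A1 rose by 0.99 in F2 females (SE 0.17, edgeR FDR = 0.0443). S100A1 passed in 2 of the 8 fits that left out 1 animal (those without control 1 or sGC 2), with an FDR of up to 0.167. Over all genes those 2 fits called 245 and 487, and the other F2 fits with 1 animal left out called from 0 to 7. The log2 fold change of S100A1 lay between 0.89 and 1.15 in the 8 fits. In F1 males NECAB1, another neuronal calcium-binding protein, fell by 0.43 (SE 0.10, edgeR FDR = 0.0208) and lost its call without control 3 or 4 (FDR up to 0.0575).

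Markers of other regions and cells were followed beside these genes, and their counts too stand against 16.5% of all genes in F1 females, 0.278% in F2 females and 9.22% in F1 males. In F1 females the summed striatal markers were at 2709, 621, 939 and 2545 CPM in controls and at 324, 283, 391 and 672 CPM in sGC animals, with 5 of 9 genes lower past the threshold in the edgeR fit and 0 higher. RARB, a retinoid receptor of striatal neurons, fell by 0.77 (SE 0.12, edgeR FDR = 0.00690). The summed markers of cortical excitatory neurons were at 3079, 1893, 1743 and 1799 CPM in F1 controls and at 3607, 3072, 3588 and 6429 CPM in F1 sGC females. All 6 of these genes were higher and 0 passed the threshold in the edgeR fit. In F3 females these sums were at 1977 to 2041 CPM in controls and 2478 to 2740 CPM in sGC animals, and the striatal sums were at 330 to 980 CPM and 220 to 479 CPM. In F2 females and F1 males the striatal sums overlapped, at 199 to 244 and 168 to 287 CPM in F2 controls and sGC females and at 101 to 146 and 121 to 151 CPM in the males. The dopamine receptor gene DRD1 alone passed among striatal genes in F2 females, at 0.96 (SE 0.16, edgeR FDR = 0.0443), and in 2 of 8 fits with 1 animal left out (those without control 1 or sGC 2, FDR up to 0.167). Over all genes those 2 fits called 245 and 487, and the other F2 fits with 1 animal left out called from 0 to 7. The log2 fold change of DRD1 lay between 0.82 and 1.10 in the 8 fits. The excitatory sums overlapped in F2 females, and were 3789 to 4525 CPM in control and 3334 to 3809 CPM in sGC males.

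Oligodendrocyte markers, which report myelin, rose for 6 of 6 genes in F1 males (MAL at 0.43, SE 0.07, edgeR FDR = 0.00478), where the sums were 3418 to 6497 CPM in controls and 7287 to 12483 CPM in sGC animals. In F2 females the sums were 4923, 3712, 3181 and 3193 CPM in controls and 8572, 4719, 11081 and 7171 CPM in sGC animals, with 0 of 6 genes past the threshold. The 2 F2 animals that stood out for NEFH, NEFM and VAMP1, control 1 and sGC 3, had the highest oligodendrocyte sum of their group. In F1 females the sums overlapped, at 4557 to 15389 CPM in controls and 3570 to 7194 CPM in sGC animals, and 0 of 6 genes passed. Counts of the other marker lists in F1 females are again read against the 16.5% of all genes that passed there. Among these lists, 3 of 6 astrocyte genes fell (GJA1 by 0.53, edgeR FDR = 0.0204), as did 3 of 4 microglia genes (CX3CR1 by 0.49, edgeR FDR = 0.00774), 1 of 5 endothelial genes (CDH5 by 0.34, edgeR FDR = 0.0345) and 1 of 4 thalamic genes (TCF7L2 by 0.75, edgeR FDR = 0.00625). Of 7 deep layer genes 1 rose (CRYM by 0.99, edgeR FDR = 0.0357), and of 7 upper layer genes 1 rose and 2 fell (CUX1 by 0.47, edgeR FDR = 0.00688). MEF2C, which was placed here in the upper layer list and was not shown to be limited to those layers, fell by 0.54 in F2 females (edgeR FDR = 0.0490) and by 0.38 in F1 males (edgeR FDR = 0.0165). With 1 animal left out, MEF2C passed in 2 of 8 fits in F2 females (those without control 1 or sGC 2) and in 11 of 11 in F1 males. Over all genes those 2 fits of F2 females called 245 and 487, and the other F2 fits called from 0 to 7. The log2 fold change of MEF2C lay between -0.62 and -0.47 in the 8 fits of F2 females. In F1 females CRYM passed in 2 of 8 fits (those without control 2 or sGC 3, FDR up to 0.0936), CDH5 in 2 of 8 (those without control 4 or sGC 3, FDR up to 0.0982) and GJA1 in 4 of 8 (lost without control 3 or 4 or sGC 1 or 4, FDR up to 0.0625). The part of striatal, excitatory, oligodendrocyte or other tissue in the values of the 10 genes, or of GAD1, GAD2 and SLC32A1, was not tested.

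Ratios of 2 genes within a library do not depend on the scaling of libraries, and 6 of them were compared after the values of the genes had been seen. Over 18 exact two-sided permutation tests in F1 females, F2 females and F1 males, 0 had an adjusted p under 0.05, and the smallest adjusted p was 0.206. An unadjusted p under 0.05 was found in 3. NEFH per NEFL, the heavy chain per light chain, was 0.225 ± 0.043 in F1 control males and 0.284 ± 0.035 in sGC males (SD, n = 5 and 6, exact p = 0.0346). PVALB per GAD1 was 0.378 ± 0.124 and 0.555 ± 0.113 in the same males (exact p = 0.0346). CPLX1 per CPLX2 was 0.221 ± 0.017 in F1 control females and 0.294 ± 0.034 in sGC females (n = 4 each, exact p = 0.0286, the smallest that 4 against 4 animals allow). In F3 females, as values only, NEFH per NEFL was 0.139 ± 0.006 in control and 0.186 ± 0.006 in sGC animals. PVALB per GAD1 was 0.084 ± 0.011 and 0.208 ± 0.021 in the same groups. The part of tissue composition in these ratios was not tested.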

How the data were processed

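RNA of mPFC punches from 35 guinea pigs was sequenced by the authors as single reads of mRNA-enriched libraries. For each of 4 groups (F1, F2 and F3 females and F1 males) they deposited 1 table of raw read counts per gene symbol. TopHat2 and edgeR are named in the submitters' processing notes. Genome build, annotation and read counter are not given in the sources used here, and no coordinates or sequences are printed. The tables also hold the authors' own comparison (log fold change, mean log CPM, likelihood ratio, p-value, FDR), which was not used. VAMP2 was not analysed here, and 2 other genes are not reported here.

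Groups came from the labels. Filtering was by filterByExpr (minimum count 10, minimum total 15) and scaling by TMM. Treatments were compared within each table by the quasi-likelihood test of edgeR 4.0.16 (R version 4.3.3, limma 3.58.1), with Benjamini-Hochberg adjustment over all genes. Standard errors were derived from the F statistic. Interactions were taken from 1 fit of both tables over shared genes. Correlations used log2 CPM with a prior count of 2. Scripts were tested on simulated data. P-values set the difference between groups against the spread between animals. The methods of the study state separate litters for the females only, so whether males shared a litter is not known.

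The 10 genes and the other lists were chosen with earlier results of these data known. Named by rule were the 10 genes, GAD1, GAD2, SLC32A1, SST, CPLX2 and SYT1, in each list the gene of lowest p where its FDR was under 0.05, and the 5 genes most like PVALB and like NEFH (of those for PVALB, 4 are given). KCNC2 in F1 females, CAMK2A, AVP and OXT were named after their values were seen. As alternatives, each result was recomputed with a likelihood ratio test, with DESeq2 1.42.0, under RLE or upper-quartile scaling, without a low-count filter, with genes above 1 CPM, blocking on animal number, fitting the 8 conditions at once, and leaving out each animal.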

Additional observations from a re-analysis of the deposited data

Results flagged for a closer look

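Over the 10 genes and 8 conditions, 80 groups of animals were examined, and 4 held an animal far from the rest of its group by Dixon's ratio. Chance gives about 5%, or 4 of 80. In F2 females, control animal 1 was high for NEFM (575 CPM, the other controls 198 to 262 CPM) and for VAMP1 (98.9 CPM, the others 37.7 to 43.9 CPM), and this animal also had the highest oligodendrocyte sum of its group. In the same table sGC animal 3 was high for INA (390 CPM, the others 347 to 353 CPM). In F3 females, control animal 1 was high for LHX6 (25.6 CPM, the others 21.4 to 22.02 CPM).

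For INA the sGC effect differed between F1 females and F1 males: the log2 fold change of males minus that of females was -0.34 (edgeR FDR = 0.00975). The log2 fold change was 0.26 in females and -0.07 in males, and neither passed on its own. Striatal markers were lower in F1 sGC females and oligodendrocyte markers higher in F1 sGC males, and their part was not tested. The sexes were counted in separate tables, so that sex and table cannot be told apart.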

How the results depend on the processing

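The number of the 10 genes past an FDR of 0.05 depended on the test in F1 females, where it was 0 in the quasi-likelihood fit, 1 with the likelihood ratio test (NEFL), 2 with DESeq2 (NEFL, INA), 1 with RLE normalization (NEFL), 1 with the replicate block (NEFL), 3 in the single fit of all 8 conditions (PVALB, NEFL, INA) and from 0 to 4 when 1 animal was left out. Over all genes these fits of F1 females called, in the same order, 1864, 2100, 2423, 1896, 1080 and 3327 genes, and from 613 to 2115 with 1 animal left out. In F1 males the number of the 10 genes was 0, and 1 with the replicate block (LHX6, edgeR FDR = 0.0289) and from 0 to 1 when 1 animal was left out. Over all genes the male fits called 1062, and 999 with the block and from 667 to 1613 with 1 animal left out. Calls that single genes lost with 1 animal left out are to be read against these changing numbers. For F3 females no such count is given, since that comparison served to choose the genes. In F2 females the number of the 10 genes past the threshold was 0 under every alternative. Over all genes the F2 fits called 31, and from 0 to 487 with 1 animal left out. Without control animal 2, 3 or 4 or sGC animal 1 or 3 they called 0 of all genes, so these fits say nothing of the 10 genes in particular. In the interaction of F1 females and F1 males the number of the 10 genes was 1 in the quasi-likelihood fit, and 2 with the likelihood ratio test, DESeq2 and RLE normalization. It was from 1 to 2 with 1 animal left out (INA, and NEFL in the fits with 2). Over all genes these fits called, in the same order, 3571 (31.7% of all genes), 3543, 3786 and 3576, and from 3005 to 3623 with 1 animal left out. In the interaction of F1 and F2 females the number of the 10 genes was from 0 to 1. Over all genes the quasi-likelihood fit of that pair called 1536 (13.8% of all genes), and from 808 to 1906 with 1 animal left out. The median correlation with PVALB, 0.87, was -0.25 in F3 females alone (NEFH -0.64, NEFL -0.28, INA -0.71, CA7 -0.25, and above 0 for NEFM at 0.56 and SYT2 at 0.65) and 0.95 in F1 males alone. The cause was not tested.

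Signs turned when 1 animal was left out for some differences, and not all of these were near 0. SYT2 in F1 females was at -0.20 (SE 0.43), and the interaction of F1 and F2 females for PVALB was -0.24 (SE 0.53). In F1 females the ranges were -0.53 to 0.055 for SYT2, -0.065 to 0.19 for LHX6 and -0.15 to 0.060 for CPLX2. In F2 females they were -0.072 to 0.0042 for INA, -0.34 to 0.14 for SST and -0.012 to 0.11 for SYT1. In F3 females SYT2 ranged from -0.37 to 0.13. In F1 males NEFL ranged from -0.050 to 0.095 and CPLX2 from -0.036 to 0.073. The interaction of F1 and F2 females ranged from -0.51 to 0.13 for PVALB and from -0.055 to 0.20 for LHX6, and that of F2 females and F1 males from -0.62 to 0.042 for PVALB. The log2 ratio in F1 females ranged from -0.095 to 0.11 for NEFH per NEFL and from -0.10 to 0.16 for NEFM per NEFL.

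Animal numbers are shared by the groups but did not pair them: deviations of same-numbered animals correlated above 0.1 in 2 of 4 pairs in F1 females, 1 of 4 in F2 females, 1 of 4 in F3 females and 1 of 5 in F1 males, and the same-numbered animal was the best match in 1, 0, 1 and 0 of these pairs. The number of the 10 genes past the threshold with the replicate block is given above, and it called no other of the 10 genes in F1 females, F2 females or F1 males. With 4 animals in a group, a gene with the spread of PVALB or NEFH had a standard error of 0.28 to 0.35 on the log2 scale in F1 and F2 females, while PVALB had at least 563 reads in each of these libraries. Over all genes, the number called in F2 females was 31, and 534 with the likelihood ratio test, 471 with DESeq2, 53 with the block and 10 in the single fit. In F1 females it was 1864, and 1080 with the block and 3327 in the single fit. In F3 females it was 153, and 616, 632, 67 and 396 under the same 4 alternatives as in F2 females.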
